A study of Homo sapiens with 2 samples.

Results

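The results concern 9 probes of the array, 1 for each of the genes TXNIP, ANGPTL4, BNIP3, CA9, ADM, VEGFA, NDRG1, PFKFB4 and P4HA1, out of 47318 probes that held a measurement. They were chosen by probe identifier: TXNIP because its signal was much lower after treatment, and the other 8 because these genes are known to respond to low oxygen or to act on glycolysis. The annotation table used here gave the same gene symbol for 8 of the 9 probes. It did not list the probe ILMN_1725139, whose assignment to CA9 comes from the list that defined the set. On GRCh38.p14 TXNIP lies at chr1:145992435-145996579, ANGPTL4 at chr19:8364155-8374370 and P4HA1 at chr10:73007217-73096866; BNIP3 is on chromosome 10, CA9 on 9, ADM on 11, VEGFA on 6, NDRG1 on 8 and PFKFB4 on 3. The position of a probe within its gene was not used here.

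The study used TIVE-LTC, a line of human umbilical vein endothelial cells immortalized with telomerase and infected long-term by the Kaposi's sarcoma-associated herpesvirus, KSHV. Both groups were infected cells of this 1 line, and no uninfected cells were analysed here. One group received vehicle and the other received 60 µM ABC294640, an inhibitor of sphingosine kinase 2, and both were exposed for 24 h. Each group was 1 array, so there is no replicate error, no test between the groups was possible, and every difference below describes these 2 arrays.

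Cells adjust transcription to oxygen mainly through the hypoxia-inducible factors, HIF-1 and HIF-2. With oxygen present, prolyl hydroxylases mark their alpha subunits for destruction by the VHL ubiquitin ligase, and without it the factors raise genes for glycolysis, vessel growth, pH control and mitochondrial turnover. TXNIP is regulated differently. It encodes an alpha-arrestin that binds thioredoxin and limits glucose uptake, and its transcription follows intracellular glucose metabolites through the factor MondoA and its partner MLX, which bind paired CACGTG-like elements. In endothelial cells TXNIP is also known as a mediator of oxidative and inflammatory stress.

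Signals are Illumina bead intensities, and a probe is called detected on an array when its deposited detection p-value is under 0.01. The 2 arrays detected 17477 probes with vehicle and 15957 with ABC294640, and 18233 probes were detected on at least 1. The 75th percentile of the deposited signals was 167.5 units with vehicle and 115.2 with ABC294640, so the treated array was dimmer before normalization. The ratios below are log2 differences, ABC294640 minus vehicle, after background correction and quantile normalization, with a median of -0.07 over the 18233 detected probes. This median was -0.65 without normalization between the arrays and 0.16 when the arrays were scaled to a common median. In bulk RNA of this kind, fewer cells of a type and less RNA per cell cannot be told apart.

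The endothelial label had little backing in the marker probes. Of 10 endothelial marker genes with a named probe, 2 were detected, TEK at 82.1 and 76.7 units and ENG (endoglin) at 181.4 and 176.0 units with vehicle and ABC294640. TEK lay at the detection limit, the lowest detected signals being 81.2 and 76.2 units. PECAM1, CDH5, KDR and VWF were not detected on either array, and 0 of 4 lymphatic endothelial markers were. Counted by probe rather than by gene, 18233 of all 47318 were detected on at least 1 array. Of 7 fibroblast or smooth muscle markers 3 were detected, the brightest probe being ACTA2 at 2175 and 1550 units. The epithelial list had 1 of 5 detected, KRT8, at 204.5 and 334.1 units, and the leukocyte list 2 of 5 with a named probe, CD14 with 95.8 and 171.3 units and LYZ with 84.1 and 68.8 units, the latter not detected with ABC294640. The annotation did not list 17198 of the probes, so other probes of these genes may be unnamed here, and the part of cell makeup in the results was not tested.

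Of the 9 probes, 7 were detected on both arrays, VEGFA on the vehicle array only and CA9 on neither. Those at least 2-fold higher with ABC294640 were ANGPTL4 and NDRG1, which makes 2 of 9 beside 7.38% of all 18233 detected probes. Those at least 2-fold lower were TXNIP and P4HA1, which again makes 2 of 9, beside 6.96% of detected probes. The log2 ratios of the 9, calculated whether or not a probe was detected, ran from -3.41 to 1.495, so the genes did not share a direction. Their median of -0.14 is the value of the VEGFA probe, which was detected on the vehicle array only. The 9 include CA9, which was undetected and could not be counted, whereas the shares are over detected probes. Since the probes were picked with these values known, nothing is read from the counts.

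**Figure D1:**
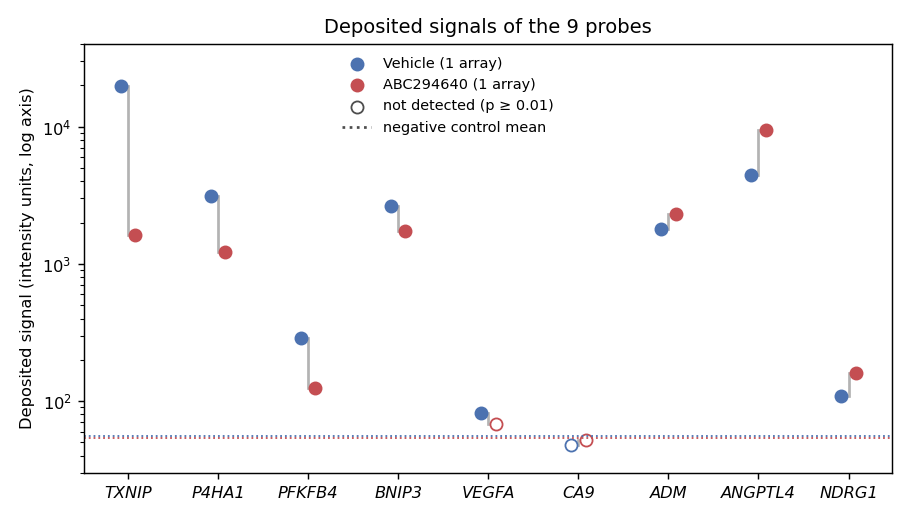
Deposited signal of each of the 9 probes (intensity units, log axis) on the vehicle array (blue) and the ABC294640 array (red), 1 array each, ordered by normalized ratio. Open circles are not detected and dotted lines are the negative control means of 56.1 and 53.8 units. TXNIP spans the widest gap, from 19657 down to 1635 units, and CA9 lies at the control level on both arrays.

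TXNIP had the most extreme value of the set. Its probe, ILMN_1697448, read 19657 units with vehicle and 1635 units with ABC294640, both with a detection p-value of 0. The signal was high on the vehicle array, where the highest signal of any probe was 25556 units, and on the treated array it was still far above the lowest detected signal of 76.2 units. The deposited signals differed 12.0-fold and the normalized log2 ratio was -3.41, a 10.6-fold lower value with ABC294640. Among the 18233 detected probes it ranked 2 from the lowest in the main setting. In the 7 other ways of processing the arrays the ratio lay between -3.62 without normalization and -2.81 with median scaling; a probe picked for its large fall could hardly have changed direction. Relative to the median of all detected probes it was at -3.34 after quantile normalization and at -2.97 in both of those scalings.

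The probe that ranked 1 from the lowest in the main setting belongs to ARRDC4 and was chosen for mention after its value was seen. ARRDC4 is the closest relative of TXNIP among the alpha-arrestins and likewise known to be driven by MondoA. This probe had 898.0 units with vehicle and 72.1 with ABC294640, where it was not detected (detection value 0.0169). These deposited signals, background included, differ 12.5-fold. Against the dimmest probe still detected on the treated array, the normalized gap was 15.1-fold in the main setting, after background was removed, and between 8.48-fold and 23.1-fold over the 8 ways of processing, so the signal was at least 8.48-fold lower. The 8.48-fold bound came from the deposited normalized values, where TXNIP had a measured log2 ratio of -3.40. Since 8.48-fold is only a lower bound, the order of these 2 probes cannot be told in those values. A separate ARRDC4 probe read 521.5 and 58.7 units, at least 4.84-fold lower by the same measure. The alpha-arrestins did not all go this way. ARRDC3, which restrains adrenergic receptor signalling, had 123.3 and 147.5 units and a log2 ratio of 1.09, although it was 0.40 without normalization. ARRDC2 had 234.9 and 134.7 units and a log2 ratio of -0.24, or -1.01 without normalization. A dimmer ARRDC2 probe at 142.4 and 108.4 units gave 0.15, or -0.53 without normalization.

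The probes nearest to TXNIP in log2 ratio, among those detected on both arrays and with 1 gene name, were KLF10, ZNF45 and ANKRD12. With 2 arrays no profile can be correlated, so likeness here is only the difference in ratio. KLF10, a zinc-finger repressor known as a TGF-beta and glucose response gene, read 807.3 units with vehicle and 90.7 with ABC294640, a log2 ratio of -3.19. Its brightest probe read 900.4 and 129.3 units, or -2.51, whereas a dim KLF10 probe at 123.8 and 86.0 units gave -0.20, or 0.01 with median scaling. ZNF45, a zinc-finger protein, had 1136 and 132.5 units and a log2 ratio of -2.83. ANKRD12, an ankyrin-repeat protein, had 1198 and 138.4 units and a log2 ratio of -2.82.

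The bases just before the start sites of TXNIP and ARRDC4 are shown because MondoA and MLX are known to act there, at paired elements. Both sequences are from RefSeq, build GRCh38.p14, 250 bases ending at the base before the start, written 5′ to 3′ on the strand of the gene. The TXNIP stretch is chr1:145996580-145996829, minus strand, and the ARRDC4 stretch is chr15:97960453-97960702, plus strand. Capitals mark CACGNG, where N is any base, on either strand, and overlapping matches run together.
TXNIP: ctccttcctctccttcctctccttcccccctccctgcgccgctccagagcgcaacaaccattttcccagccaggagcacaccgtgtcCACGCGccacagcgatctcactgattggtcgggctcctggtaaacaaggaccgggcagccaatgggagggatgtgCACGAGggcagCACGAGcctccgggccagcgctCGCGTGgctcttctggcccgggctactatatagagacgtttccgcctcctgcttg
ARRDC4: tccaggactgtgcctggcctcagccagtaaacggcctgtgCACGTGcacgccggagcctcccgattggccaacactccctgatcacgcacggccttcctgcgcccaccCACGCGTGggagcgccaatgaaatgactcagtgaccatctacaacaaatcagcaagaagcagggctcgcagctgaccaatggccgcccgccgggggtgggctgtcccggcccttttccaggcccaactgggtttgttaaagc

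TXNIP held 4 matches to CACGNG, starting 163, 88, 77 and 55 bases before the start, and those at 88 and 77 form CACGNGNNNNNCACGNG, the letters of a carbohydrate response element. This paired pattern, searched on both strands, occurs in 16 of 35116 such stretches, or 0.0456%. The pattern was set after the TXNIP sequence was seen, so its match there was fixed in advance and nothing is read from its rarity. P4HA1 held the same pattern, 169 bases before its start. ARRDC4 held 3 matches to CACGNG, of which 1 is CACGTG and the others overlap, and it held no paired pattern with this spacing. CACGNG alone occurs in 26.7% of stretches and CACGTG in 6.34%. The match is a description of letters and says nothing about binding in these cells.

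No gene of the thioredoxin system itself was past 2-fold. Of 13 genes in the list of thioredoxin system and alpha-arrestin genes, 10 were detected by their brightest probe, with 1 at least 2-fold higher (ARRDC3) and 1 lower (ARRDC4). The matching shares over all 10883 detected genes were 6.99% higher and 8.36% lower. TXN, the thioredoxin that TXNIP binds, read 7454 units with vehicle and 5779 with ABC294640, a log2 ratio of -0.38 that turned to 0.44 with median scaling. TXNRD1, its reductase, had 976.5 and 426.4 units and a log2 ratio of -0.56. PRDX3, the mitochondrial peroxiredoxin, had 2570 and 967.9 units and a log2 ratio of -0.95. On the other side, TXN2, the mitochondrial thioredoxin, had 109.2 and 120.1 units and a log2 ratio of 0.90, and TXNRD2, its reductase, had 475.5 and 403.3 units and 0.53, or -0.25 without normalization. TXN, TXNRD1, PRDX3, TXN2, TXNRD2 and ARRDC2 were chosen for mention after their values were seen. The list median was -0.28, beside -0.10 over all detected genes. It was -0.64 without normalization, where TXNRD1 and PRDX3 were also past 2-fold, and 0.17 with median scaling, where TXN2 was.

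MLX, the partner of MondoA, was dim, with 171.3 and 120.6 units and a log2 ratio of 0.07, or -0.66 without normalization. It was the only gene besides KLF10 detected in the list of glucose-related transcription factors, where 2 of 5 with a named probe were detected. MLXIP, the gene of MondoA itself, was not detected on either array, at 55.6 and 55.4 units (detection values 0.490 and 0.395). MLXIP was named after its values were seen. The list's gene past 2-fold, KLF10, is a glucose response gene and not a sensor. The list median was -1.22, from these 2 genes, beside -0.10 over all detected genes. Over all detected genes 6.99% were at least 2-fold higher and 8.36% lower, and nothing is read from a list of 2. KLF10 was also the 1 lower gene of the list without normalization (median -1.95) and with median scaling (median -1.14).

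Among the secreted factors, ANGPTL4 was higher with ABC294640 and ADM less so. ANGPTL4, an inhibitor of lipoprotein lipase that responds to hypoxia and to PPAR receptors, was read by ILMN_1707727 at 4424 units with vehicle and 9465 after ABC294640. The log2 ratio was 1.10, a 2.14-fold higher value, above 93.9% of detected probes. Separate ANGPTL4 probes gave larger ratios at lower signals. ILMN_2386444 had 369.8 and 1152 units and a log2 ratio of 2.43, and ILMN_1674376 had 120.3 and 324.5 units and 2.54. All 3 ANGPTL4 probes were detected on both arrays and higher with ABC294640, also without normalization, at log2 ratios of 1.10, 1.76 and 1.84.

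ADM encodes adrenomedullin, a vasodilator peptide made by endothelium. The probe ILMN_1708934 had 1810 units with vehicle and 2324 with ABC294640, a log2 ratio of 0.76 and thus below 2-fold. Median scaling put it at 1.18, past 2-fold, and no normalization at 0.37.

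VEGFA, the main growth factor of vessels and the best known HIF target, could hardly be measured. The member probe, ILMN_1803882, read 81.4 units with vehicle (detection value 0.00909) and 68.2 with ABC294640 (detection value 0.026), against lowest detected signals of 81.2 and 76.2 units, and no fold is given. A brighter VEGFA probe, ILMN_2375879, was detected on both arrays with 176.8 and 138.4 units and a log2 ratio of 0.31, which turned to -0.44 without normalization. A further VEGFA probe was undetected, at 43.6 and 42.0 units. No direction can be given for VEGFA.

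CA9 encodes a carbonic anhydrase of the cell surface that is commonly used as a hypoxia marker. ILMN_1725139 read 47.9 units with vehicle (detection value 0.860) and 52.2 units with ABC294640 (detection value 0.569), at or below the negative control means of 56.1 and 53.8 units. CA9 was therefore not above background on either array. CA12, a related surface carbonic anhydrase and also a hypoxia response gene, was measured, with 241.1 units with vehicle and 479.1 after ABC294640. The log2 ratio was 1.88, and a dimmer CA12 probe at 90.8 and 138.7 units gave 1.60. Without normalization these were 1.14 and 1.00.

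NDRG1, a cytoplasmic protein induced by hypoxia and other stresses, was higher with ABC294640 but dim. ILMN_1809931 had 109.4 units with vehicle and 160.6 after ABC294640, a 1.47-fold gap between deposited signals. Background correction and normalization brought the log2 ratio to 1.495, or 2.82-fold, above 96.7% of detected probes. Without normalization between the arrays it was 0.83, under 2-fold, and without background correction 1.06. The vehicle signal lies near the lowest detected signal of 81.2 units, while the ABC294640 signal lies further above its own limit of 76.2 units. Over all 8 ways of processing the arrays the ratio ran from 0.83 to 1.82.

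P4HA1 and PFKFB4 were on the lower side. P4HA1, the catalytic subunit of collagen prolyl hydroxylase, was read by ILMN_1693334 at 3146 units with vehicle and 1214 after ABC294640. The normalized log2 ratio was -1.02 (2.03-fold lower), just past the 2-fold line. It fell short of 2-fold with cyclic loess (-0.93), in the authors' deposited normalized values (-0.97) and with median scaling (-0.59). Without normalization between the arrays it was -1.40. A dim P4HA1 probe at 109.4 and 62.2 units was undetected with ABC294640. Its bound was 1.27-fold lower in the main setting, 1.03-fold with median scaling and 1.80-fold without normalization.

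PFKFB4 encodes a bifunctional kinase and phosphatase that sets the level of a potent activator of phosphofructokinase, the committed step of glycolysis. ILMN_1653292 had 290.6 units with vehicle and 125.4 after ABC294640, a 2.32-fold gap between deposited signals. After normalization the log2 ratio was -0.75, below 2-fold, and it was -1.52 without normalization.

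BNIP3, a mitochondrial receptor for autophagy, was near the middle. ILMN_1724658 read 2645 units with vehicle and 1738 with ABC294640, a log2 ratio of -0.22. The direction turned with median scaling, to 0.19. Relative to the median of all detected probes the BNIP3 ratio was -0.15 after quantile normalization and 0.04 with median scaling or no normalization. A change in BNIP3 could not be told from the overall shift between the arrays.

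**Figure D2:**
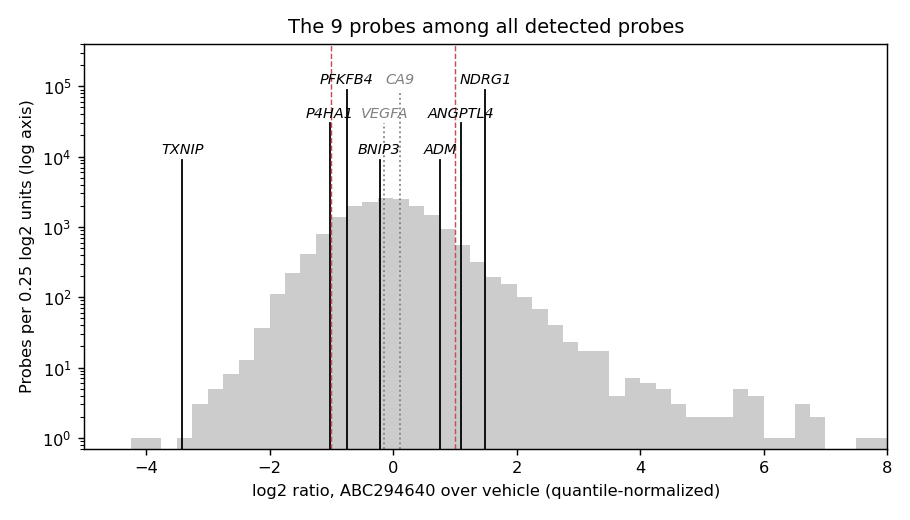
Number of probes (log axis) by log2 ratio of ABC294640 over vehicle for the 18233 detected probes, in grey, with the 9 probes as vertical lines and dashed lines at 2-fold. TXNIP at -3.41 lies in the lower tail and the other 8 lie between -1.02 and 1.495; dotted lines mark VEGFA and CA9, which were not detected on both arrays.

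**Figure D3:**
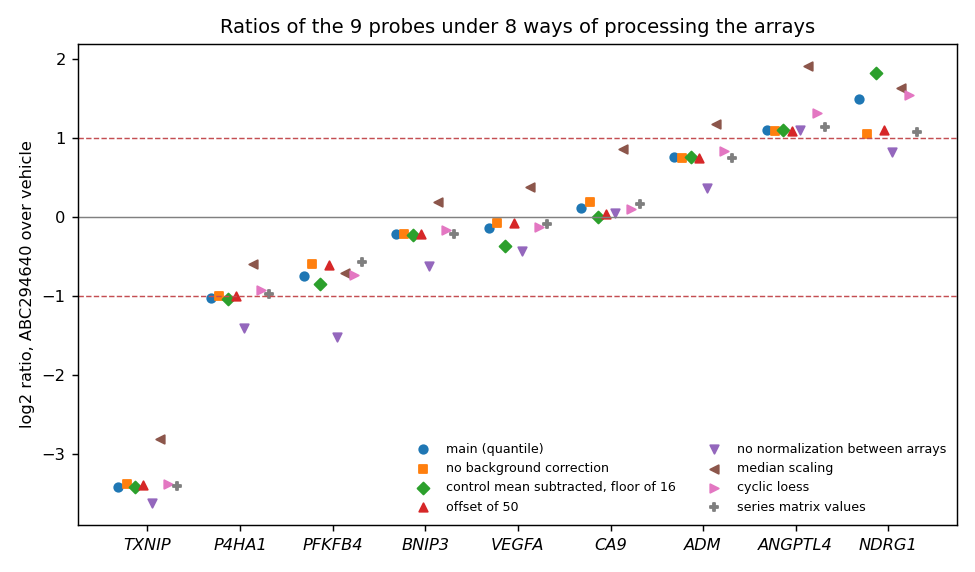
The log2 ratio of each of the 9 probes under 8 ways of processing the same 2 arrays, with dashed lines at 2-fold. TXNIP keeps between -3.62 and -2.81 and ANGPTL4 between 1.09 and 1.91, while NDRG1, P4HA1, PFKFB4 and ADM cross the 2-fold line in some settings and BNIP3 and VEGFA change sign.

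Of 35 other hypoxia response genes, 32 had a named probe and 29 were detected. Of these, 2 were at least 2-fold higher, 4 at least 2-fold lower and 23 neither, with a median log2 ratio of -0.13, beside 6.99% higher and 8.36% lower over all detected genes. Without normalization 1 was higher and 10 lower, and with median scaling 4 were higher and 2 lower, so the balance of this list follows the scaling. The higher genes were CA12, above, and EFNA1, an ephrin ligand, which had 422.4 and 648.6 units and a log2 ratio of 1.41. Without normalization EFNA1 was at 0.68.

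The lower genes included 3 that were detected on both arrays. GBE1, the glycogen branching enzyme, read 2442 units with vehicle and 570.0 with ABC294640, a log2 ratio of -1.62, and it stayed past 2-fold with median scaling, at -1.36. PLOD2, a collagen lysyl hydroxylase and so a functional neighbour of P4HA1, had 3199 and 1102 units and a log2 ratio of -1.17, but its other probes gave -0.49 and -0.26 (-1.02 and -0.97 without normalization), and median scaling put the brightest at -0.76. INSIG2, a sterol-sensing protein of the endoplasmic reticulum, had 389.8 and 139.3 units and a log2 ratio of -1.01, or -0.98 with median scaling. BHLHE41, a circadian repressor named here after its value was seen, had 296.0 units with vehicle and was undetected at 75.6 units with ABC294640, at least 2.79-fold lower over the 8 ways of processing.

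Of 11 oxygen-sensing genes and HIF subunits 8 were detected, and 0 were past 2-fold in either direction, with a median log2 ratio of -0.13. Over all detected genes 6.99% were higher and 8.36% lower. Without normalization 3 were lower and the median was -0.62; with median scaling 0 were past 2-fold and the median was 0.19. EGLN2, a HIF prolyl hydroxylase, had 2044 units with vehicle and 1374 with ABC294640, a log2 ratio of -0.12, which turned to 0.22 with median scaling. HIF1A, the alpha subunit of HIF-1, had 1846 and 1185 units and -0.15, and its other probes gave -0.46 and 0.24, so neither has a settled direction. EPAS1, the alpha subunit of HIF-2, had the lowest ratio of the list and was named after its value was seen, with 1832 and 671.6 units and -0.93, or -1.50 without normalization. HIF subunits are controlled largely as proteins, which the array does not measure.

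Of 25 genes of glycolysis and glucose or lactate transport, 23 had a named probe and 21 were detected, with 1 at least 2-fold higher, 0 lower and a median log2 ratio of 0.07, beside 6.99% higher and 8.36% lower over all detected genes. The 1 higher gene was PFKL, the liver-type phosphofructokinase, with 178.5 and 209.5 units and a log2 ratio of 1.08, which was 0.31 without normalization. The list held 5 higher and 0 lower genes with median scaling (median 0.56), and 0 higher and 2 lower without normalization (median -0.25). LDHA, which makes lactate, had 14600 and 13881 units and a log2 ratio of -0.22, against 0.74 with median scaling. Its other probes gave -0.22 and, at 198.5 and 188.4 units, 0.70. LDHA was named after its value was seen.

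**Figure D4:**
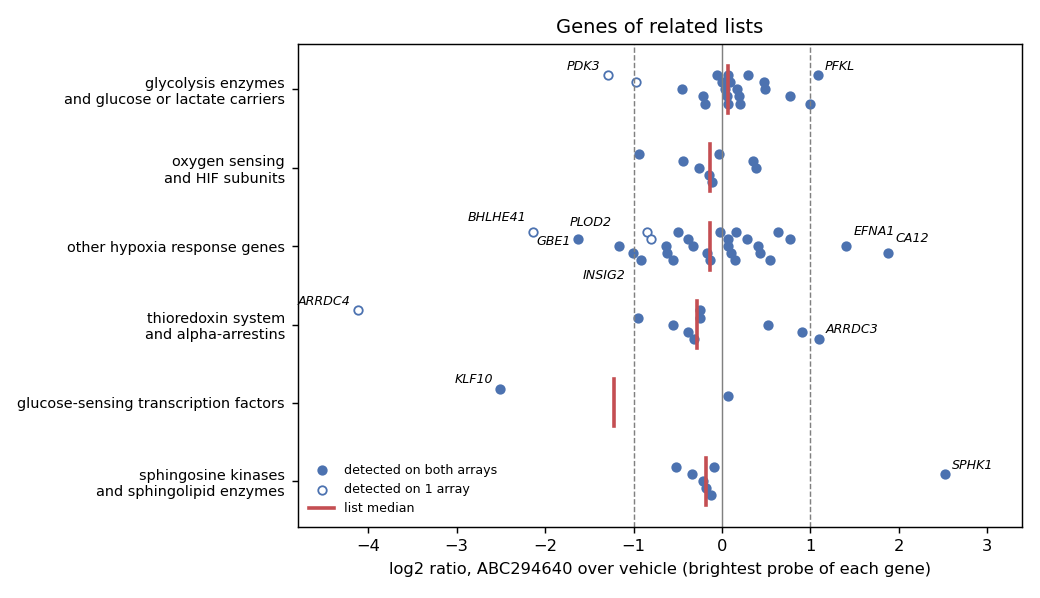
The log2 ratio of ABC294640 over vehicle for each detected gene (1 point per gene, its brightest probe) in 6 related gene lists, with list medians in red and dashed lines at 2-fold. Open points were detected on 1 array only and show the measured ratio, not the bound, so PDK3 lies beyond the line although its bound is below 2-fold. Most glycolysis genes lie between the dashed lines, while ARRDC4 and KLF10 lie far to the left and SPHK1 far to the right.

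The sphingolipid genes bear on the inhibitor itself. Of 9 listed, 7 were detected, and 1 was past 2-fold, on the higher side, beside 6.99% higher over all detected genes. The list median was -0.18, with 1 higher and 1 lower gene without normalization (median -0.75) and 1 higher and 0 lower with median scaling (median 0.06). SPHK1, the sister enzyme of the inhibitor's target, had 260.2 units with vehicle and 816.2 with ABC294640, a log2 ratio of 2.52, and it was 1.82 without normalization. A separate SPHK1 probe was undetected on both arrays, at 48.3 and 51.3 units. No probe in the annotation table used here was named SPHK2.

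The bases before the start sites of ANGPTL4 and P4HA1 are shown because these genes, the one higher and the other lower by at least 2-fold, are both textbook hypoxia response genes with signals far above background. The letters searched were the HIF core ACGTG and GCGTG. The sequences are RefSeq sequences of GRCh38.p14, 250 bases each, 5′ to 3′ on the strand of the gene, chr19:8363905-8364154 (plus) and chr10:73096867-73097116 (minus). Capitals mark ACGTG or GCGTG on either strand.
ANGPTL4: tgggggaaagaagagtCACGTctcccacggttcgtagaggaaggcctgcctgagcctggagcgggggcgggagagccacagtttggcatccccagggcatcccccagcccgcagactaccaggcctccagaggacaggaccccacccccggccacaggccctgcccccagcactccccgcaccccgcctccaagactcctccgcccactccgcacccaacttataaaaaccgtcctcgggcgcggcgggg
P4HA1: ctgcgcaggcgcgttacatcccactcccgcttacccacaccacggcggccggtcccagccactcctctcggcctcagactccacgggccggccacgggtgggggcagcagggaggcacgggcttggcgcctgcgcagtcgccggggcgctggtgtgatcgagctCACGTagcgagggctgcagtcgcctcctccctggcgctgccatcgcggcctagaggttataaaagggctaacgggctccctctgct

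Each held 1 match, starting 234 bases before the start in ANGPTL4 and 86 in P4HA1. A match to either core occurs in 43.2% of the 35116 stretches, so its presence sets neither gene apart. BNIP3 held 6 such matches, counted on both strands with overlaps, and CA9, ADM and PFKFB4 held 1 each. Of the BNIP3 matches, 2 are the same CACGTG read on either strand. The PFKFB4 stretch lies before a start site that is not the outer end of the gene. TXNIP held 2 matches, of the GCGTG form, which overlap its CACGNG matches. P4HA1 also held the paired pattern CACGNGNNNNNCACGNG, 169 bases before the start. The other members searched (ANGPTL4, BNIP3, CA9, ADM and PFKFB4) held 0 paired patterns; VEGFA and NDRG1 were not searched.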

How the data were processed

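RNA of 2 cultures, 1 per group, was measured on Illumina Expression BeadChips. Per the submitters' processing notes the authors used GenomeStudio; no version is given in the sources used here, and its settings likewise. The authors deposited 1 intensity per probe and array without background subtraction, and beside it a detection p-value. A second deposited table holds intensities with nearly equal distributions on both arrays (medians 62.2 and 62.2), whose scaling method is not stated.

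Of 47323 probes, 5 with a signal of 0 and a detection value of 0 on both arrays were left out as placeholders, leaving 47318. In R 4.3.3 with limma 3.58.1, the level of the negative controls was derived from the detection p-values, background was corrected by normexp, an offset of 16 was added, and log2 values were quantile-normalized. Quantile normalization removes overall differences between arrays, and the offset shrinks ratios of dim probes. A probe detected on 1 array has a lower bound, against the higher of its own value and the lowest detected value (log2 5.20 with vehicle, 5.48 with ABC294640). The number of arrays limits precision, and no p-value between groups was computed. The procedure was also run on simulated arrays with a uniform shift and changes planted only below the brightest probes. These are simpler than the real arrays, and no result here rests on them.

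An annotation table for the platform named 30112 probes with 1 gene, 8 with several and did not list 17198. The brightest probe stood for a gene. Locations and sequences are RefSeq's. The 9 members and all gene lists were chosen with earlier results of these data known, and the paired motif after the TXNIP sequence was seen. All members are named, with up to 5 genes per list past 2-fold and detected on both arrays (otherwise the 2 brightest), and the 3 probes nearest to TXNIP in ratio; other genes, among them TXN, TXN2, TXNRD1, TXNRD2, PRDX3, ARRDC2, ARRDC4, MLX, BHLHE41, EPAS1 and the cell type markers, were named after their values were seen. The 7 other ways of processing changed background, offset, normalization or source table; detection filter, fold threshold and bound were also varied.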

Additional observations from a re-analysis of the deposited data

How the results depend on the processing

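With 1 array per group no alternative measures replicate error. The count of members at least 2-fold higher was 2 in the main setting, beside 7.38% of all detected probes. It was 1 without normalization between the arrays (ANGPTL4), beside 3.01%. With median scaling it was 3, beside 11.3%, and at a 3-fold threshold 0, beside 2.92%. The count at least 2-fold lower was also 2 in the main setting, beside 6.96%. It was 1 (TXNIP) with median scaling (beside 4.97%), cyclic loess (6.84%), the deposited normalized table (3.82%) and a 3-fold threshold (1.21%). It was 3 without normalization, where 27.9% of all detected probes passed. The other alternatives gave 2 in each direction, except a 1.5-fold threshold with 3 in each. At 1.5-fold 17.2% of all detected probes were higher and 18.5% lower. In the alternatives with 2 in each direction, 3.25% to 10% of the probes counted were higher and 3.4% to 9.3% lower. Scaling moved the whole array: higher probes were 51.5% of all probes past 2-fold in the main setting, 69.4% with median scaling and 9.71% without normalization. All detected probes at least 2-fold numbered 1346 higher and 1269 lower, against 548 and 5094 without normalization, 2059 and 906 with median scaling, 1824 and 1696 with the control mean subtracted, 898 and 734 without background correction, 930 and 777 with an offset of 50, and 895 and 696 in the deposited normalized table. The median of the 9 members, -0.14, was 0.39 with median scaling and -0.42 without normalization. Each of these is the value of the VEGFA probe, for which no direction can be given. TXNIP's ratio moved by more than the spread of the 1000 probes nearest in signal (0.49) only with median scaling, to -2.81. The effect of scaling on the gene lists, added after seeing the data, is given beside each pathway list. Counting all probes of a gene gave 4 higher in the hypoxia list and 2 lower in both the thioredoxin and the glucose-related lists. Dim signals limit VEGFA, CA9 and NDRG1. No paired analysis was possible because there is 1 array a group.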
